A study of Mus musculus with 42 samples.

Results

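The interleukin-1 (IL-1) family of cytokines, receptors and antagonists was followed through ureteral obstruction in mouse kidney, in the proximal tubule and in total kidney. The members were 10 genes taken by symbol: the ligands Il1b, Il1f6, Il33 and Il18, the antagonists Il1rn and Il18bp, the decoy receptor Il1r2, and the signalling receptors Il1r1, Il1rl1 and Il1rap. All 10 had a row among the 40701 symbols in the deposited tables.

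The libraries came from renal cortex of mice aged 12 weeks after unilateral ureteral obstruction (UUO), an operation that blocks the outflow of 1 kidney and leads to tubular injury and fibrosis. Obstructed kidneys were taken at day 5 or day 10, and contralateral kidneys, which the labels call healthy controls, served as the reference. The fraction labelled PT (proximal tubule) is RNA from translating ribosome affinity purification (TRAP), in which ribosomes carrying a GFP tag were pulled from the homogenate with anti-GFP beads, and the fraction labelled Total is labelled total kidney. Each of the 3 states had 4 male and 3 female libraries in each fraction, 42 libraries in 12 groups. The labels state neither the strain, nor the promoter that drives the tag, nor the day on which a contralateral kidney was taken, nor whether Total is the unbound part of the same homogenate. They do not say that replicates came from separate animals, so p-values measure the spread between these libraries.

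IL-1 family ligands bind a specific receptor chain that then recruits a shared accessory protein, encoded for most of them by Il1rap, and signal through Myd88, the IRAK kinases and NF-kB. IL-1 beta, encoded by Il1b, and IL-18 are made as precursors that are cleaved by inflammasome caspases, whereas IL-33 and IL-36 alpha (the product of Il1f6, now also called Il36a) are released mainly from damaged epithelial or stromal cells. The family carries its own brakes: Il1rn encodes the IL-1 receptor antagonist, Il1r2 a receptor that binds IL-1 without signalling, and Il18bp a secreted protein that captures IL-18. In the kidney, injured tubule cells are known as a source of IL-18 and IL-36 alpha, and infiltrating myeloid cells as a source of IL-1 beta.

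Library totals ranged from 9307188 to 43640760 counts with a median of 18527961. The PT fraction was not free of other cell types. The summed level of 14 macrophage and monocyte markers in PT rose from a median of 4.49 RPKM (reads scaled by gene length and library size) in contralateral kidneys to 90.8 at day 5 and 102 at day 10. In Total the same sums were 50.1, 872 and 1160 RPKM. The summed level of 12 proximal tubule markers in PT had medians of 12400, 4780 and 7350 RPKM in the same order, and 11600, 2790 and 2070 in Total. Ranges were wide, at 5780 to 24600, 1640 to 9160 and 837 to 9660 in PT, where day 5 and day 10 overlapped. In Total they were 4990 to 14900, 1060 to 6500 and 494 to 6500. Of these 12 markers, 0 were called higher in PT than in Total in contralateral kidneys and 1 lower, while 6 were higher at day 5 and 7 at day 10. Of all genes, 1.16% were higher and 22.9% lower in contralateral kidneys, and 4.02% and 7.07% were higher at day 5 and day 10. Lars2, a gene whose level differed widely among libraries of the same group, ranged from 722 to 10500 RPKM in PT at day 10. RPKM is not scaled for composition: fold changes scaled by library size only, rather than by TMM factors, placed the median of all genes higher by 0.47 and 0.44 on the log2 scale in PT at day 5 and day 10, and by 0.44 and 0.36 in Total. The share of calls that were rises then went from 59.6% to 83.2% and from 62.2% to 82.9% in PT, and from 59.1% to 80.4% and from 60.3% to 76% in Total.

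In PT, 7 of the 10 members rose in obstructed kidneys at day 5 and none fell. Il1f6, Il33, Il18, Il1rn, Il18bp, Il1r1 and Il1rl1 passed the threshold at both times (edgeR quasi-likelihood test, a Benjamini-Hochberg adjusted p under 0.05 together with a change of 2-fold or more). Il1rap was tested and did not pass, and Il1b and Il1r2 held too few counts in PT to be tested there. Over all 14932 genes tested in PT, 18.2% rose and 12.4% fell at day 5, and 19.7% rose and 12% fell at day 10. The median log2 fold change of the 8 tested members was 2.38 at day 5 and 3.19 at day 10, against 0.05 over all genes at each time. Members were chosen with earlier results of these data known, so the contrast with all genes, here and in Total, is a description. Il1f6 and Il1rl1, at least, entered the PT test through their obstructed libraries, so a rise was the only call open to them. Over the contralateral PT libraries, Il1rl1 held 2 counts and Il1f6 at most 0.431 RPKM. By RPKM alone, every obstructed library lay above every contralateral library for 6 of the 10 members at day 5 and for 8 of 10 at day 10. Of the genes tested in PT, 24.9% and 20.5% did so. The 8 include the untested Il1b, whose lowest day 10 value was 0.0608 RPKM against a contralateral highest of 0.0406.

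In Total, 8 of 10 members rose at day 5 and the same number at day 10. They were Il1b, Il1f6, Il33, Il1rn, Il18bp, Il1r1, Il1r2 and Il1rl1 at each time. Il1f6, Il1r2 and Il1rl1 entered the Total test through their obstructed libraries, so a rise was the only call open to them. Over the contralateral Total libraries, Il1r2 held 13 counts, Il1rl1 23 counts and Il1f6 at most 0.759 RPKM. Il18 passed the p threshold below 2-fold, and Il1rap did not pass. Of 16782 genes tested in Total, 19.2% rose and 13.3% fell at day 5, and 20.9% rose and 13.8% fell at day 10. The members' median log2 fold change was 2.48 at day 5 and 3.00 at day 10, against 0.04 and 0.06 over all genes. Obstructed and contralateral RPKM ranges were fully apart for 9 of 10 members at each time, all but Il1rap, with all-gene shares of 25.7% and 25%. In bulk RNA, more cells of a type and more RNA per cell cannot be told apart, and this holds for every level given here.

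**Figure D1:**
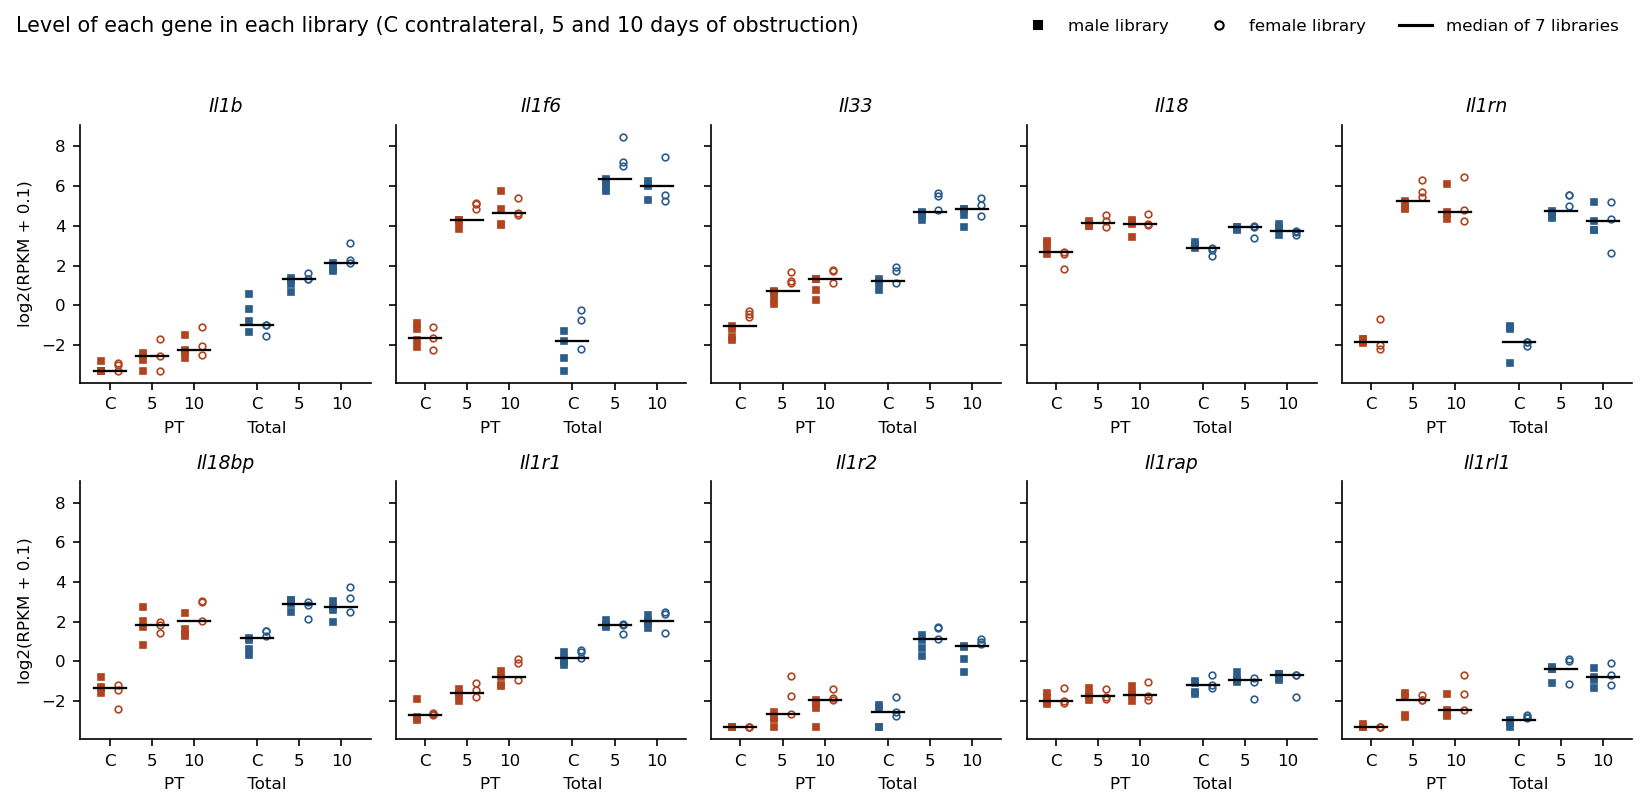
Expression of the 10 members in every library as log2(RPKM + 0.1), with 1 panel per gene and PT and Total shown for contralateral (C), day 5 and day 10 kidneys; squares are male and open circles female libraries, and each bar is the median of 7. Il1f6 and Il1rn moved from under 1 RPKM to at least 6.18 RPKM in both fractions, Il1b stayed at or under 0.367 RPKM in every PT library, and the Il1rap ranges overlapped between states.

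Il1f6 had the largest rise of any member in Total. Its RPKM in contralateral Total kidneys was lowest at 0, with a median of 0.189 and a highest of 0.759. At day 5 the lowest, median and highest were 54.3, 80.8 and 360, and at day 10 they were 38.5, 64.9 and 177. No obstructed library came near the contralateral range. The log2 fold change was 8.47 ± 0.56 (SE; adjusted p = 4.79e-10) at day 5, the 2nd largest of the 16782 genes tested, and 7.89 ± 0.55 (adjusted p = 7.64e-10) at day 10.

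In PT, Il1f6 went from 0.108, 0.22 and 0.431 RPKM (lowest, median, highest) to 14.3, 19.8 and 35.5 at day 5 and 16.6, 24.9 and 53.1 at day 10. The ranges were again far apart, at a lower level than in Total. Log2 fold changes in PT were 6.13 ± 0.32 (adjusted p = 3.75e-12) and 6.41 ± 0.33 (adjusted p = 1.85e-12). At day 5 in Total the 3 female libraries held 147, 360 and 130 RPKM of Il1f6 and the 4 male libraries 74.8, 80.8, 54.3 and 61.4. The sexes did not overlap there, but the female minus male difference in the change was 0.40 ± 1.49 on the log2 scale and did not pass.

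Il33, which encodes a nuclear alarmin of epithelial, endothelial and stromal cells, rose in both fractions and stood far higher in Total. In Total its RPKM was 1.61, 2.24 and 3.71 (lowest, median, highest) in contralateral kidneys, 19.7, 26.1 and 51.0 at day 5 and 15.4, 28.8 and 42.8 at day 10. In PT the same values were 0.197, 0.377 and 0.716, then 0.958, 1.53 and 3.04, then 1.1, 2.4 and 3.28. Every obstructed library exceeded every contralateral library of its fraction. The log2 fold change was 3.18 ± 0.18 at day 5 and 3.13 ± 0.18 at day 10 in Total, and 1.60 ± 0.19 (adjusted p = 4.25e-07) and 1.99 ± 0.19 (adjusted p = 1.82e-08) in PT. The highest PT library at any time, at 3.28 RPKM, lay within the contralateral range of Total.

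Il18 was the most abundant member of contralateral kidneys in both fractions. In PT it held 3.47, 6.33 and 9.47 RPKM (lowest, median, highest) in contralateral kidneys, 15.4, 17.7 and 23.5 at day 5 and 10.7, 17.0 and 24.0 at day 10. In Total it held 5.53, 7.37 and 9.06, then 10.2, 15.1 and 15.8, then 11.4, 13.3 and 16.9. The ranges did not overlap with the contralateral range in either fraction. In PT the log2 fold change was 1.04 ± 0.19 (adjusted p = 0.000109) at day 5 and 1.01 ± 0.19 (adjusted p = 0.000134) at day 10, at the edge of the 2-fold minimum. The day 5 value fell below 2-fold when any of 3 PT libraries was left out, to 0.97 without contralateral male 1, 0.94 without contralateral female 2 and 0.89 without day 5 female 3. At day 10 the same happened for 5 libraries, with 0.94 without contralateral male 1, 1.00 (just under the minimum before rounding) without contralateral male 2, 0.91 without contralateral female 2, 0.93 without day 10 male 2 and 0.91 without day 10 female 3. In Total the changes of 0.50 ± 0.15 (adjusted p = 0.00657) and 0.52 ± 0.15 (adjusted p = 0.0047) were under 2-fold. Il18 overlaps Bco2 and Tex12 on the opposite strand, and the sources used here do not state whether counting used strand, so reads of overlapping genes cannot be told apart.

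Il1b was close to 0 in PT and rose with time in Total. Over 7 contralateral PT libraries the tables held 4 counts of Il1b in all, with 4 libraries at 0. The 7 day 5 PT libraries held 15 counts and the 7 day 10 PT libraries 46, at a lowest, median and highest of 0.0608, 0.108 and 0.367 RPKM at day 10. In Total, Il1b went from 0.24, 0.401 and 1.37 RPKM to 1.46, 2.4 and 2.95 at day 5 and 3.19, 4.2 and 8.7 at day 10. The 3 Total ranges followed each other with no overlap. Log2 fold changes in Total were 1.78 ± 0.28 (adjusted p = 8.22e-06) at day 5 and 2.87 ± 0.28 (adjusted p = 5.92e-09) at day 10. Il1b overlaps the antisense gene Il1bos.

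Among the members, only Il1b passed the test between day 10 and day 5 in Total, with a log2 difference of 1.08 ± 0.25 (adjusted p = 0.0402), where 0.352% of all genes rose and 0.0417% fell, and where 0.22% of genes had day 10 libraries all above those of day 5. The adjusted p passed the threshold narrowly. The call was lost when any of 10 of the 14 libraries was left out, with log2 differences from 0.89 to 1.11 among those fits, and with the replicate number as a block, at 1.03. In PT, none of the 8 tested members passed between day 10 and day 5, a comparison in which 0.422% of genes rose and 0.0201% fell. Of those 8, 2 had an unadjusted p under 0.05, against 10.5% of all genes, and DESeq2 called 1. The larger difference was that of Il1r1, at 1.25 ± 0.31 (adjusted p = 0.0777), and it became a call, at 1.41, without day 10 female 2.

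Il1rn, the gene of the IL-1 receptor antagonist, rose most steeply of all members in PT. Contralateral PT libraries held 0.119, 0.178 and 0.523 RPKM (lowest, median, highest), day 5 libraries 29.1, 38.3 and 78.4, and day 10 libraries 18.7, 25.5 and 88.3. The lowest obstructed library lay well above the highest contralateral library. The log2 fold change in PT was 7.17 ± 0.43 (adjusted p = 5.87e-11) at day 5, in place 23 of the 14932 genes ranked by log2 fold change, and 6.99 ± 0.42 (adjusted p = 5.94e-11) at day 10. At day 10, male 3 with 69.5 RPKM and female 2 with 88.3 stood above the other 5 PT libraries.

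In Total, Il1rn moved from 0.0347, 0.179 and 0.382 RPKM to 21.2, 27.1 and 46.5 at day 5 and 6.18, 18.6 and 36.9 at day 10. The lowest day 10 value, in female 3, was still above every contralateral library. Log2 fold changes in Total were 6.71 ± 0.45 (adjusted p = 3.57e-10) and 6.22 ± 0.44 (adjusted p = 6e-10).

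In Total, the antagonist exceeded its ligand in most obstructed libraries and in none of the contralateral ones. The ratio of Il1rn to Il1b RPKM in Total was 0.119, 0.446 and 0.793 (lowest, median, highest) in contralateral kidneys, with every library under 1. At day 5 it was 8.56, 13.2 and 19.4, and at day 10 it was 0.711, 4.33 and 9.51. The contralateral and day 5 ratios did not overlap, and day 10 spanned both sides of 1. No such ratio was taken in PT, where Il1b was at or near 0.

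**Figure D2:**
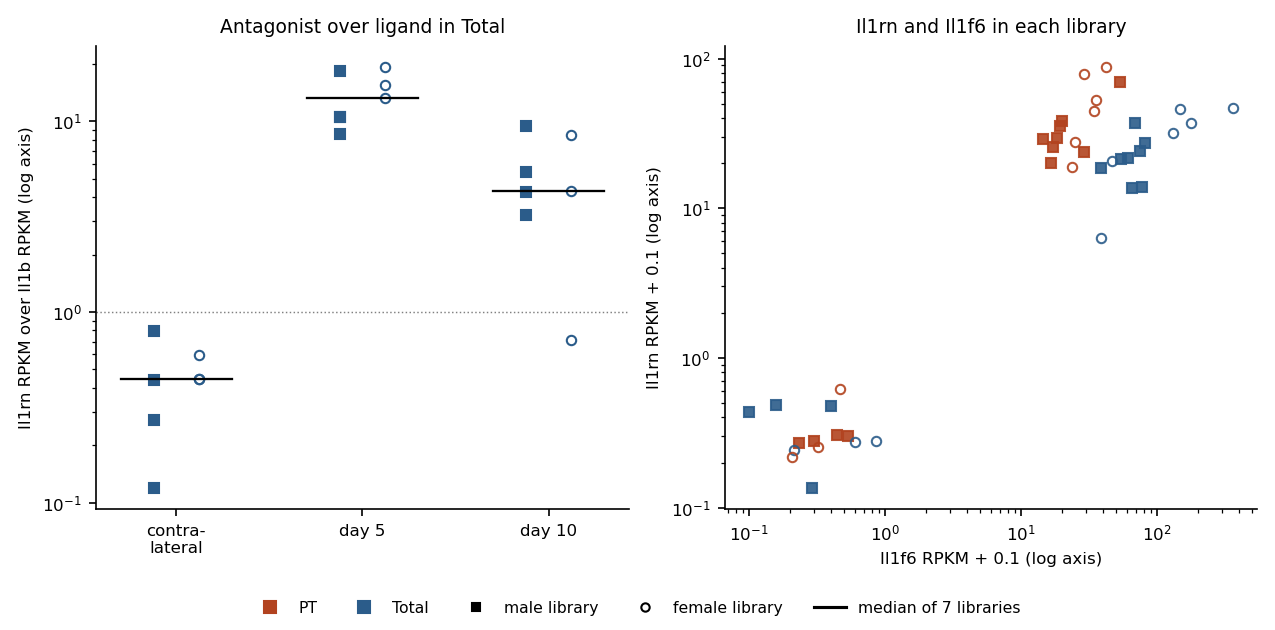
Left, the ratio of Il1rn to Il1b RPKM in each Total library by state, on a log axis; right, Il1rn against Il1f6 as RPKM + 0.1 in each library on log axes, coloured by fraction, with squares for male and open circles for female libraries. The bars are medians of 7. The day 5 ratios lie between 8.56 and 19.4, above all contralateral ratios, and obstructed PT libraries hold more Il1rn relative to Il1f6 than obstructed Total libraries.

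Il1rn and Il1b sit on the same chromosome, where the annotation orders the family as Il1f8, Il1f9, Il1f6, Il1f5, Il1f10, Il1rn, Il1a and Il1b, yet Il1rn was the highest member in obstructed PT and Il1b was among the lowest. The 250 bases before the Il1b start and before 2 of the 3 Il1rn starts are shown, since Il1rn was the steepest riser of PT and Il1b the ligand that stayed near 0 there. They are RefSeq sequences of build GRCm38.p6, with matches to an NF-kB pattern (GGG, then any 5 bases, then CC) and to TGANTCA (AP-1) in capitals. The first Il1rn window is chr2:24336610-24336859 on the plus strand, the next is chr2:24345041-24345290 on the plus strand, and the Il1b window is chr2:129371140-129371389 on the minus strand. The window of the third Il1rn start, chr2:24345121-24345370 on the plus strand, is not printed because it overlaps the start 2 window and runs past that start into transcribed bases.
Il1rn start 1: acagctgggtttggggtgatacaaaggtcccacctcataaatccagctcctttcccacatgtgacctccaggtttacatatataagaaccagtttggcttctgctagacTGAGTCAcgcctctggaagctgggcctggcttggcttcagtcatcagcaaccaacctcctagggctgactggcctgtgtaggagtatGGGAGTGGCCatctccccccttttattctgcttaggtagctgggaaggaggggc
Il1rn start 2: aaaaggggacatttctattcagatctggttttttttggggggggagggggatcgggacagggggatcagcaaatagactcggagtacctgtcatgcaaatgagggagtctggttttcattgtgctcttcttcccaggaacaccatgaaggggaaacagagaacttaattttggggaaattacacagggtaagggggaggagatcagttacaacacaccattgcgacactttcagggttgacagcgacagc
Il1b: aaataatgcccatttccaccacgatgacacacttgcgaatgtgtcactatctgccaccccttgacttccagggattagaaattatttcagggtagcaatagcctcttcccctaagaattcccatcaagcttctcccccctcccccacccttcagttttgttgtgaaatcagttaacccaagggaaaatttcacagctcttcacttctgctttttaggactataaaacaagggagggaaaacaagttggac

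Start 1 of Il1rn holds an AP-1 match beginning at position -141 and an NF-kB match beginning at -54 relative to the start. The window of the third start holds an NF-kB match beginning at -51. Neither the start 2 window nor the Il1b window holds either motif, nor TTGCNNAA (C/EBP) or GAAA followed after any 2 bases by GAAA (the interferon-stimulated response element, ISRE). Searched on both strands, the NF-kB letters occurred in 45.8% of 32851 RefSeq windows of this length, AP-1 in 6.75%, C/EBP in 9.56% and ISRE in 2.98%. Over the 14 windows of the 9 members that have one (all but Il1f6), NF-kB occurred in 4 windows of 3 members, AP-1 in 1, C/EBP in 4 and ISRE in 0. The members with NF-kB were Il1rn, Il1r1 and Il1rap. Il1rap, which passed in no comparison between states, held the most, with 6 partly overlapping matches in its only window. Il1b, Il33, Il18, Il1r2, Il1rl1 and Il18bp held none, though each rose in at least 1 fraction. A link between motif and change was not tested. A match says only that the letters are present, and no match says only that they are not in this window.

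Il18bp, which encodes the soluble IL-18 binding protein, rose in both fractions and more steeply in PT. PT libraries held 0.0922, 0.302 and 0.489 RPKM (lowest, median, highest) in contralateral kidneys, 1.66, 3.43 and 6.65 at day 5 and 2.34, 3.95 and 8.21 at day 10. In Total they held 1.17, 2.2 and 2.8, then 4.25, 7.38 and 8.6, then 3.84, 6.54 and 13.3. All obstructed libraries were above the contralateral range of their fraction. PT log2 fold changes were 3.17 ± 0.37 (adjusted p = 4.09e-07) and 3.61 ± 0.37 (adjusted p = 6.33e-08), and Total changes were 1.29 ± 0.24 (adjusted p = 6.18e-05) and 1.48 ± 0.24 (adjusted p = 9.38e-06). Il18bp overlaps Numa1 on the opposite strand.

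The ratio of Il18bp to Il18 RPKM in PT had a median of 0.0469 in contralateral kidneys (range 0.0146 to 0.1), 0.174 at day 5 (0.103 to 0.377) and 0.245 at day 10 (0.12 to 0.501). The obstructed PT libraries all exceeded the contralateral ones. In Total the ratio had medians of 0.281, 0.489 and 0.476, and its ranges overlapped.

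Il1r2, the decoy receptor, was at 0 counts in all 7 contralateral PT libraries. The 7 day 5 PT libraries held 19 counts and the 7 day 10 PT libraries 24, at least 5.65-fold and at least 6.08-fold higher than a floor of 3 counts over the contralateral group. In Total, Il1r2 went from 0, 0.0716 and 0.19 RPKM (lowest, median, highest) to 1.1, 2.13 and 3.19 at day 5 and 0.588, 1.6 and 2.09 at day 10. Total log2 fold changes were 4.31 ± 0.43 (adjusted p = 1.06e-08) and 3.82 ± 0.43 (adjusted p = 6.7e-08), with no overlap of ranges.

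Il1r1, the signalling receptor for IL-1 alpha and IL-1 beta, was scarce in PT and rose there at both times. PT libraries held 0.0306, 0.0565 and 0.167 RPKM (lowest, median, highest) in contralateral kidneys, 0.15, 0.23 and 0.364 at day 5 and 0.331, 0.491 and 0.975 at day 10. In Total the values were 0.788, 1.04 and 1.37, then 2.52, 3.51 and 4.21, then 2.58, 4.03 and 5.5. Ranges were apart from the contralateral range except in PT at day 5. PT log2 fold changes were 1.53 ± 0.35 (adjusted p = 0.00101) and 2.78 ± 0.35 (adjusted p = 9.09e-07), and Total changes were 1.18 ± 0.16 and 1.55 ± 0.16. The highest PT library, at 0.975 RPKM, lay within the contralateral range of Total.

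Il1rl1, which encodes the IL-33 receptor ST2, was nearly absent from contralateral kidneys and low in obstructed ones. Contralateral PT libraries held 2 counts in all, all in male 4, against 124 at day 5 and 164 at day 10. The count ratios, scaled by effective library size, were 55.3 at day 5 (95% counting interval 15.0 to 462) and 62.3 at day 10 (17.0 to 519). The edgeR test, a separate fit, gave log2 fold changes of 6.05 ± 0.87 (adjusted p = 1.03e-05) and 6.17 ± 0.87 (adjusted p = 6.65e-06). In Total its RPKM was 0, 0.0313 and 0.0546 (lowest, median, highest), then 0.355, 0.677 and 0.981, then 0.301, 0.472 and 0.841, with log2 fold changes of 4.13 ± 0.38 and 3.83 ± 0.39. Obstructed ranges were clear of the contralateral ranges in both fractions.

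Il1rap, the accessory chain shared by the IL-1, IL-33 and IL-36 receptors, passed in no comparison between states. PT medians were 0.153, 0.196 and 0.214 RPKM and Total medians 0.335, 0.431 and 0.513, in the order contralateral, day 5, day 10. All of these ranges overlapped with the contralateral ones. The fitted log2 changes were -0.26 ± 0.25 and -0.10 ± 0.25 in PT and -0.24 ± 0.25 and -0.01 ± 0.25 in Total. Their sign depended on scaling: by library size only they were 0.22, 0.37, 0.23 and 0.38, still short of the threshold.

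**Figure D3:**
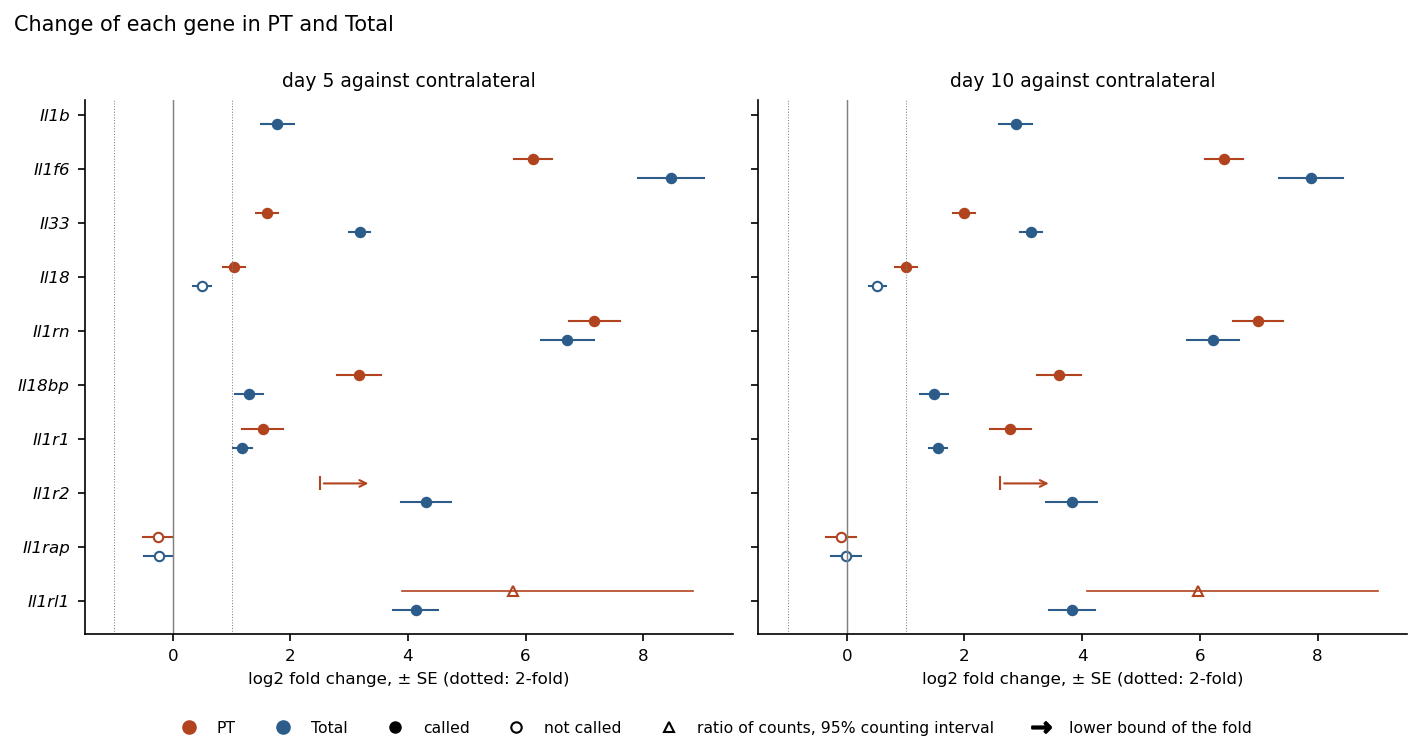
Log2 fold change from contralateral kidney of each member at day 5 and day 10 in PT and Total, with bars of 1 SE; filled symbols passed the test, open symbols did not, triangles are count ratios with a 95% counting interval for genes with 1 to 3 counts on a side, and arrows are lower bounds. Il1f6 and Il1rn lie above 6 in both fractions, and Il1rap lies near 0.

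Obstruction reordered the family. In contralateral PT, Il18 at a median of 6.33 RPKM was clear of the next member, Il33 at 0.377, and the ranges of each pair of neighbours below it overlapped. At day 5 in PT the order began Il1rn, Il1f6 and Il18, whose neighbouring ranges overlapped, and Il18 was clear of Il18bp, the next. The leading 3 kept that order at day 10. In Total, Il18 led in contralateral kidneys and was in place 4 at day 5, behind Il1f6, Il1rn and Il33, with Il1f6 clear of the rest. At day 10 the Total order began Il1f6, Il33 and Il1rn with overlapping ranges. RPKM is per length, so these orders compare genes within a fraction.

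Comparing the fractions directly, 6 of 10 members were lower in PT than in Total in contralateral kidneys, where 22.9% of 17110 genes were lower and 1.16% higher; none of the members was higher. Those 6 were Il1b, Il33, Il18bp, Il1r1, Il1r2 and Il1rl1. The median log2 difference of the 10 was -2.41, against -0.07 over all genes, and 4 of 10 had every PT library below every Total library, against 19.2% of genes. At day 5, 6 members were again lower and 0 higher, against 23.8% and 4.02% of genes, with Il1f6 now lower and Il18bp no longer past 2-fold. At day 10, 6 were lower, against 23%, and 1, Il1rn, was higher, against 7.07%. Every PT library lay below every Total library for 6 of 10 members at day 5 and 4 of 10 at day 10, where 22.3% and 20% of genes did so. The members' median log2 difference was -1.95 at day 5 and -1.25 at day 10. By library size only, the median of all genes moved by -0.31, -0.26 and -0.26 in the 3 states, and the share of calls higher in PT fell from 14.4% to 4.73% at day 5 and from 23.5% to 10.6% at day 10.

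Among members with a fitted difference in each state, Il1b lay furthest below Total, at a log2 difference of -4.58 ± 0.59, -4.77 ± 0.46 and -4.55 ± 0.41 in contralateral, day 5 and day 10 kidneys. The contralateral value rests on 4 PT counts and became -5.77 without PT contralateral male 1. The differences of Il1r1 were -3.86 ± 0.28, -3.53 ± 0.25 and -2.59 ± 0.23. For Il33 the differences were -2.26 ± 0.19, -3.87 ± 0.18 and -3.36 ± 0.18. Il1r2 was at least 4.27-fold lower in PT in contralateral kidneys, and -4.13 ± 0.50 and -3.22 ± 0.48 after obstruction. Il1rl1 was 11.3-fold lower by counts in contralateral kidneys (95% counting interval 2.8 to 99.2), then -1.88 ± 0.40 and -1.40 ± 0.40.

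Marker lists give the same comparison for whole cell types. The median log2 difference between PT and Total was -3.54, -4.38 and -4.10 over the 14 macrophage and monocyte markers, and -4.04, -4.29 and -4.20 over the fibroblast and pericyte markers. Of 12 neutrophil markers, 7 were at 0 in every contralateral PT library, among them Ly6g, Mpo and Camp, and 3 were at day 5. Their summed level in PT had a median of 0.149, 1.45 and 1.93 RPKM, with ranges of 0 to 0.336, 0.561 to 2.97 and 0.557 to 4.23, against medians of 7.95, 37.0 and 38.7 in Total. Macrophage and monocyte markers rose in 13 of 14 cases in PT and 14 of 14 in Total at each time, with none at 0. Of all genes, 18.2% and 19.7% rose in PT at day 5 and day 10, and 19.2% and 20.9% in Total. The macrophage and monocyte sums in PT ranged from 3.89 to 6.85, from 70.5 to 127 and from 90.8 to 246 RPKM. Fibroblast markers in PT had summed levels of 1.12 to 2.89, 8.09 to 14.3 and 12.8 to 20.6 RPKM. The part of these cell types in the PT values of Il1b, Il1r1, Il1r2, Il1rl1 and Il33 was not tested.

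Il1rn and Il18 stood apart from that pattern, with PT levels near or above those of Total. Il1rn differed by 0.32, 0.76 ± 0.33 (adjusted p = 0.0518) and 1.16 ± 0.33 (adjusted p = 0.00337) in the 3 states. The day 10 call was lost without PT day 10 male 3 (0.98), PT day 10 female 2 (0.79) or Total day 10 female 3 (0.98), and by library size only (0.91). Il18 differed by 0.12, 0.63 ± 0.16 (adjusted p = 0.0012) and 0.65 ± 0.16 (adjusted p = 0.00088), under 2-fold in each.

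Il1f6 was lower in PT than in Total after obstruction. It differed by 0.33 in contralateral kidneys, without passing, and was lower in PT by -2.03 ± 0.31 (adjusted p = 1.07e-06) at day 5 and -1.10 ± 0.30 (adjusted p = 0.00212) at day 10. The day 10 call was lost without PT day 10 male 1 (-0.94), PT day 10 female 3 (-0.96) or Total day 10 female 2 (-0.48), the library with the highest Il1f6 of its group, and with the replicate number as a block (-0.98). The ratio of Il1rn to Il1f6 RPKM accordingly ranged from 1.29 to 2.72 in PT at day 5, with a median of 1.83, and from 0.129 to 0.392 in Total, with a median of 0.323. These ranges did not overlap. Markers of tubule segments other than the proximal tubule were also scarcer in PT: the summed loop and distal tubule markers had medians of 42.7, 21.5 and 27.7 RPKM in PT and 935, 422 and 402 in Total, and collecting duct markers 38.1, 18.2 and 20.4 against 137, 97.2 and 77.0. Their part in the Total level of Il1f6 was not tested.

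**Figure D4:**
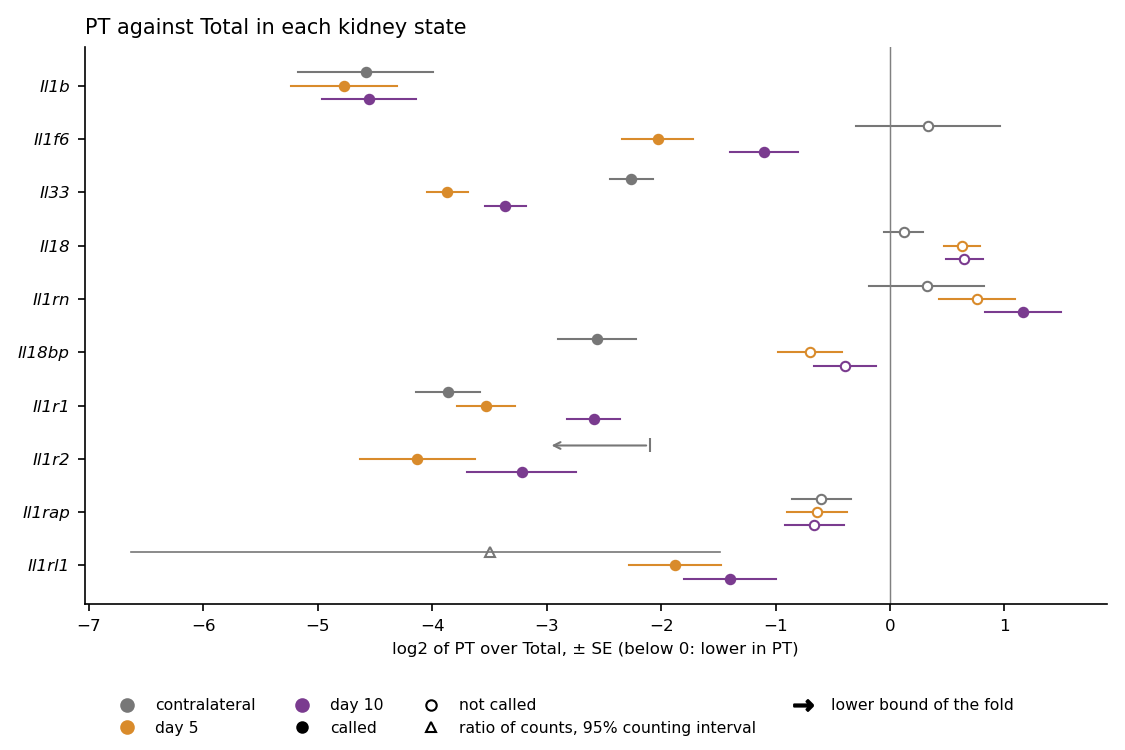
Log2 ratio of PT over Total for each member in contralateral, day 5 and day 10 kidneys, with bars of 1 SE and filled symbols for differences that passed the test. Il1b, Il1r1 and Il1r2 lie far below 0 in each state, while Il1rn lies above 0 and passes at day 10.

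Whether obstruction acted differently in the fractions was tested as the difference of the changes. At day 5, 1 member changed more in PT (3.02% of genes did) and 1 changed less (1.24%). Il18bp was the former, by 1.85 ± 0.44 (adjusted p = 0.00524), and Il33 the latter, by -1.61 ± 0.25 (adjusted p = 2.02e-05). At day 10, 2 changed more in PT (4.68% of genes) and 1 less (1.08%). Il18bp differed by 2.17 ± 0.43 (adjusted p = 0.000654), Il1r1 by 1.26 ± 0.35 (adjusted p = 0.0177) and Il33 by -1.10 ± 0.25 (adjusted p = 0.00247). Il1f6 at day 5, at -2.35 ± 0.73 (adjusted p = 0.0502), missed the threshold by a small margin, passed in the fit with the replicate block at -2.29, and at day 10 was -1.43 (adjusted p = 0.262). The Il33 difference at day 10 was no longer past 2-fold without Total day 10 female 3 (-0.94), and the Il1r1 call ended without Total day 10 male 3 (1.03).

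The change on obstruction was not found to differ between females and males for any member, in either fraction at either time. Over all genes, 0.502% and 0.208% passed this test in PT at day 5 and day 10, and 0.59% and 0.185% in Total. These counts of genes were 75, 31, 99 and 31, and ranged over 22 to 91, 15 to 39, 54 to 164 and 12 to 48 when 1 library was left out. At an unadjusted p under 0.05 the members numbered 1 and 1 of 8 in PT and 2 and 1 of 10 in Total, where 8.62%, 6.03%, 14.3% and 6.37% of all genes did so, and DESeq2 called 0 members in all. Il1b in Total at day 10 had an estimate of 2.02 ± 0.55 (female minus male, adjusted p = 0.246). Its Total day 10 libraries were 4.33, 4.73 and 8.7 RPKM in females at the lowest, median and highest, and 3.19 to 4.2 in males.

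Of 15 further IL-1 family genes, 11 had a row, 4 were tested in PT and 5 in Total. Sigirr, an inhibitory receptor of the family, was the most abundant and went down. Its median was 43.5, 27.4 and 28.4 RPKM in PT and 34.4, 21.3 and 19.4 in Total. The log2 change was -1.07 ± 0.16 (adjusted p = 1.35e-05) in PT at day 5 and -0.97 ± 0.16, under 2-fold, at day 10, and in Total -1.04 ± 0.17 and -1.34 ± 0.18 passed. Sigirr was higher in PT than in Total at day 10, by 1.07 ± 0.17.

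Both IL-18 receptor chains rose in both fractions. Il18r1, the ligand-binding chain, changed by 2.95 ± 0.60 and 4.25 ± 0.57 on the log2 scale in PT and by 2.64 ± 0.45 and 3.64 ± 0.44 in Total. Il18rap, the accessory chain, was 59.7-fold (95% counting interval 16.2 to 498) and 122-fold (33.4 to 1010) higher by counts in PT, and changed by 2.58 ± 0.33 and 2.88 ± 0.33 in Total. Its change was larger in PT by 2.83 ± 0.73 (adjusted p = 0.0129) and 3.58 ± 0.72 (adjusted p = 0.000654). Summed lymphocyte markers, whose cells carry this receptor, had medians of 0.327, 3.51 and 4.67 RPKM in PT and 5.54, 40.7 and 46.7 in Total, and their part was not tested.

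Il1rl2, the receptor for IL-36 alpha and so for the product of Il1f6, rose in Total by 3.56 ± 0.66 and 3.60 ± 0.66. In PT it was barely counted, with 11 counts at day 5 and 16 at day 10 over 7 libraries each, and lay below Total by -3.23 ± 0.69 and -2.93 ± 0.65. Il1f9, another IL-36 ligand gene, was 11.6-fold (1.74 to 493) and 55.5-fold (9.65 to 2220) higher by counts in PT at day 5 and day 10 and changed by 2.44 ± 0.82 and 2.51 ± 0.83 in Total. Il1a, the gene of IL-1 alpha, stayed at or under 0.394 RPKM in every library. Il1f5, Il1f8, Il1f10, Il1rapl1 and Il1rapl2 were near 0 in most libraries.

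Downstream of the receptors, most signalling genes did not pass the test. Of 18 tested genes of the Myd88, IRAK and NF-kB pathway, 5 rose and 1 fell in each fraction at each time, with median log2 changes of 0.22 and 0.23 in PT and 0.07 and -0.05 in Total. Over all genes, 18.2% and 19.7% rose and 12.4% and 12% fell in PT at day 5 and day 10, and 19.2% and 20.9% rose and 13.3% and 13.8% fell in Total; the same shares stand behind the counts of the next lists. The members with the largest rise in PT at day 5 were Map3k8, a kinase that activates ERK signalling, at 3.29 ± 0.43 and Irak3, a brake on the pathway, at 3.22 ± 0.26, and Irak2 fell by 1.25 ± 0.16. At day 10 in PT they were Irak3 at 3.34 and Map3k8 at 2.87, and Chuk, an IkB kinase subunit, fell by 1.28 ± 0.21. In Total at day 5, Irak3 rose by 2.39 ± 0.22 and Nfkb1 by 1.71 ± 0.11, and Chuk fell by 1.09 ± 0.16. At day 10, Irak3 rose by 2.66 and Map3k8 by 1.82, and Chuk fell by 1.25.

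Among genes that process IL-1 beta and IL-18, all those that passed the test rose. In PT, 7 of 10 tested rose at day 5 and 8 of 10 at day 10, none fell, and the median log2 changes were 1.52 and 2.47. In Total, 10 of 15 and 12 of 15 rose and none fell, with medians of 2.25 and 2.78. Gsdmd, which encodes the pore through which mature IL-1 beta and IL-18 leave the cell, had median RPKM of 0.182, 9.26 and 10.2 in PT and changed by 5.29 ± 0.19 and 5.60 ± 0.20. Its change was larger in PT than in Total by 2.43 ± 0.24 and 2.55 ± 0.24. The other leading gene in PT was Prtn3, a myeloid serine protease, 69.1-fold (95% counting interval 18.8 to 576) and 81.7-fold (22.3 to 679) higher by counts. In Total the largest rises were those of Prtn3, at 6.01 ± 0.63 and 6.07, and Mefv, which encodes the inflammasome sensor pyrin, at 4.14 ± 0.71 and 4.28. Both genes held only 4 counts over the contralateral Total libraries, so these fold changes are loose.

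Of the same list, the genes given next were chosen after their values were seen. Nlrp3 had 2, 3 and 12 counts over the PT libraries of the 3 states, too few to test, and rose in Total by 2.25 ± 0.29 and 2.81 ± 0.29. Casp1, which cleaves both cytokines, had a change of 1.02 in PT at day 5 that did not pass and rose by 2.66 ± 0.63 at day 10. Casp4, a caspase that cleaves gasdermin D directly, changed more in PT than in Total, by 2.06 at day 5 and 1.93 at day 10.

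Of 18 genes induced by IL-1 in many cells, 13 were tested in PT and 15 in Total, and all of those rose at each time. A gene could enter the test through its counts in obstructed kidneys alone, and the rest were too low to test. In PT the untested genes included Il6, with 1, 3 and 7 counts over the libraries of the 3 states, and Ptgs2, with 0, 2 and 7. Median log2 changes of the tested genes were 4.31 and 4.59 in PT and 3.29 and 3.22 in Total. In PT at day 5 the neutrophil chemokine genes Cxcl2 and Cxcl1 led, at 7.36 ± 0.44 (0.0573 to 14.5 median RPKM) and 6.90 ± 0.48 (0.459 to 89.5). At day 10 Cxcl2 at 6.80 and Ccl2, a monocyte chemokine gene, at 6.51 ± 0.28 led. In Total, Lcn2, the gene of the tubular injury protein NGAL, led at both times, at 7.08 ± 0.32 and 7.72 ± 0.33, before Cxcl2 at 6.83 ± 0.39 and 6.43. These genes also answer other signals, and IL-1 was not manipulated.

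Genes linked to the lymphocyte and type 2 response to IL-33 and IL-18 were mostly too low to test in PT. There, 2 of 6 rose at each time: Areg, an epidermal growth factor ligand gene, by 4.35 ± 0.79 and 3.57 ± 0.84, and Retnla, a marker of alternatively activated macrophages, by 2.78 ± 1.11 and 6.39 ± 0.82. In Total, 7 of 12 rose at each time, led by Retnla at 6.39 ± 1.02 and Areg at 5.92 ± 0.75 at day 5, and by Retnla at 10.13 ± 0.84 and Ifng, 44-fold higher by counts (95% counting interval 7.55 to 1770), at day 10. Retnla held only 4 and 5 counts over the contralateral PT and Total libraries, so its fold changes are loose, while its median RPKM in Total was 0, 3.56 and 51.0. Retnla also rose between day 5 and day 10, by 3.61 ± 0.58 in PT and 3.74 ± 0.48 in Total.

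**Figure D5:**
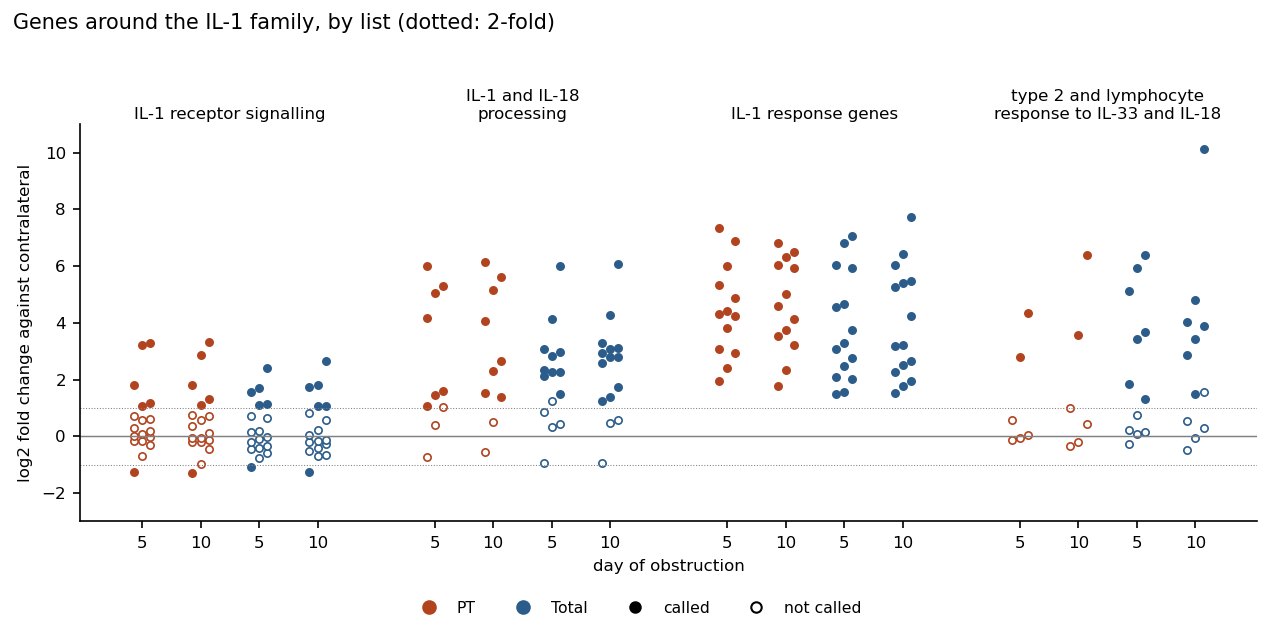
Fitted log2 fold change from contralateral kidney for each tested gene of the signalling, processing, response and type 2 lists, in PT and Total at day 5 and day 10; each point is a gene, filled where it passed the test, and genes with few contralateral counts are included at their fitted value. The tested response genes all lie above 0, with medians of 4.31 and 4.59 in PT, while the signalling genes centre near 0.

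As a description over the 21 PT libraries, which share the 3 states, so that many genes follow the same course, the gene whose log2 CPM was most like that of Il1rn was Il1f6, with a Pearson r of 0.988, and the reverse held too. After it came Dcdc2a and Havcr1, the gene of the injury marker KIM-1, both at 0.985 with Il1rn, and Serpina10 at 0.987 and Tubb2b at 0.985 with Il1f6. Il18bp was nearest to Tap1 (0.964), Gbp2 (0.959) and Psmb10 (0.957); Tap1 and Psmb10 act in antigen processing, and Gbp2 encodes an interferon-induced GTPase. Il33 was nearest to Abcg1, Cdh6 and Lhfpl2, led by 0.953, Il18 to Trim59 at 0.916, and Il1r1 to Trpm6 at 0.961.

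Over all 42 libraries, which add the difference between fractions, the nearest genes changed. Il1f6 was nearest to Lif (0.966), Timp1 (0.957) and Ccl20 (0.954), and Il1rn to Aoc1 (0.973), Nek6 and C3 (0.967). Il1b was nearest to Fgl2, Pou2f2 (0.957) and Ncf4 (0.956), Il33 to Pirb (0.974) and Il1r1 to Pmp22 (0.981). Il1r2 was nearest to Hp (0.935), Pilra (0.931) and Il33 (0.929).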

How the data were processed

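RNA was sequenced from 42 libraries. The authors deposited a table of raw counts and a table of RPKM values, each with 1 column per library; per the submitters' processing notes the tools were STAR 2.0.4b, Subread and featureCounts 1.4.5. The genome build, annotation and strand setting are not given in the sources used here. The RPKM values gave a single length per gene for 28069 genes when set against the counts (relative deviation at most 0.0005), and no column was a copy of another.

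Counts were tested with edgeR 4.0.16 (R 4.3.3): genes kept by filterByExpr, TMM factors, robust quasi-likelihood fit, 1 mean per group of sex and state (and fraction), sexes averaged with equal weight. PT and Total were fitted separately, each with 21 libraries, and comparisons between fractions in 1 fit of all 42. P-values were Benjamini-Hochberg adjusted over all tested genes, and a call needed both an adjusted p under 0.05 and a change of 2-fold or more. The SE is the log2 fold change over the square root of F and is approximate. Genes with 1 to 3 counts on a side are given as a count ratio with a 95% counting interval, and those at 0 against a floor of 3 counts over the group; these cover counting error only.

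The members and lists were chosen with earlier results of these data known. All members and every other family gene with a row are named; of the other lists, the 2 largest rises and 2 largest falls called. Genes of like pattern are the 3 with the highest Pearson r of log2 CPM (prior count 2). On simulated data the fit called 90.7% of 4-fold changes in PT at day 5 (14479 genes) and 94% in Total (16297). For the difference between fractions (16339) it called 72.7%. Changes of 2-fold reached the adjusted p threshold in 51.5%, 72.2% and 33.3% of cases. Of all calls, 3.3%, 0.72% and 2.1% were false. Each simulation was a single run that changed a small set of genes, equally up and down, around mean levels over all fitted libraries. It did not cover the broad rises or the near-0 contralateral counts of these data.

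Alternatives were RLE, upper-quartile and library-size scaling, other filters, DESeq2 1.42.0, limma 3.58.1 (voom, and log2(RPKM + 1)), only the groups compared, other thresholds, a replicate block and each library left out; Lars2 as a covariate was added after seeing the data. Samples that share a replicate number within a sex deviated together (all 7 pairs over 0.1, by correlation of deviations from group means) between contralateral and day 10 Total (0.15 to 0.36), PT and Total contralateral (0.29 to 0.44), and PT and Total at day 10 (0.19 to 0.68); the number came from the titles. Promoter windows are RefSeq's (GRCm38.p6). GENCODE M21 served only for names and neighbours.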

Additional observations from a re-analysis of the deposited data

Results flagged for a closer look

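Of 59 groups of 4 male libraries tested, 6 (10.2%) held a library far from the other 3. The cut-off marks about 1 in 20 groups only for normally distributed values. It was applied here to untransformed RPKM, where a group with 1 library above 0 is always marked, so the 10.2% cannot be read against that rate. In PT contralateral kidneys, Il1b was 0.0406 RPKM in male 1 and 0 in the others, Il1r1 was 0.167 in male 2 with the next at 0.0451, and Il1rl1 was 0.011 in male 4 and 0 in the others. Il1rn in PT at day 10 was 69.5 RPKM in male 3 with the next at 25.5, and in Total contralateral kidneys it was 0.0347 in male 1 with the next at 0.336. Il1rl1 in Total at day 5 was 0.372 RPKM in male 4 with the next at 0.667. The lone values of Il1b and Il1rl1 in contralateral PT rest on 2 counts each.

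The effect of obstruction differed between PT and Total, by the test of the difference itself, for Il33 (-1.61 at day 5 and -1.10 at day 10, PT minus Total on the log2 scale), Il18bp (1.85 and 2.17) and Il1r1 (1.26 at day 10).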

How the results depend on the processing

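Of the members' values recomputed under the alternatives, 50 lost the call, 21 gained it, 4 reversed and 3657 stayed on their side of the threshold. Among the last, 174 values that passed in neither fit changed sign, over 40 members and comparisons. All 4 reversals came from limma on log2(RPKM + 1), for the difference in change between fractions. Il1r2 at day 5 was -1.40 in place of 0.03. At day 10, Il1b was -1.70 in place of 0.03, Il1r1 -0.70 in place of 1.26 and Il1r2 -1.01 in place of 0.95. The PT levels of these genes lay below the 1 RPKM added there, and the cause of the reversals was not tested.

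Counts of members called moved as follows, and the cause was not tested. For the difference in change at day 5, the members lower went from 1 to 2 under RLE, upper-quartile and library-size scaling, a filter of 5 CPM in 3 libraries, DESeq2, only the groups compared and the replicate block, and to 4 under limma on RPKM, which left 0 higher. At day 10 the members higher went from 2 to 1 under RLE, no filter and adjusted p under 0.01, and to 0 under limma on RPKM, which gave 4 lower in place of 1. In Total, day 10 against day 5, the 1 member higher became 0 under library-size scaling, limma on RPKM, the replicate block, the Lars2 covariate and adjusted p under 0.01. For PT against Total at day 10, the 1 member higher became 0 under library-size scaling and limma on RPKM and 2 with no fold minimum; at day 5, 0 became 1 with no fold minimum. In PT, day 10 against day 5, 0 higher became 1 under DESeq2, voom, only the groups compared and the Lars2 covariate. Limma on RPKM also gave 4 higher in PT at day 5 in place of 7, and 2 lower for PT against Total in contralateral kidneys in place of 6.

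With 1 library left out, members higher ranged from 6 to 7 in PT at day 5 and at day 10, 0 to 1 for PT and for Total between day 10 and day 5 (Total lower 0 to 1), and 0 to 1 higher and 5 to 6 lower for PT against Total at day 10. For the difference in change they ranged from 1 to 2 lower at day 5, and from 1 to 2 higher and 0 to 1 lower at day 10. Il1f6 in Total was called lower at day 10 than at day 5, at -1.14, without day 10 female 2. Il18 in PT at day 10 was 0.97 with the Lars2 covariate, Il1f6 for PT against Total at day 10 was -0.97 under voom, and the Il1r1 difference at day 10 was 1.12 under RLE and 1.14 with no filter.

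In the comparisons whose replicate numbers pair the samples, the block changed the call of 1 member, Il1f6 for PT against Total at day 10 (-0.98). In the others, it ended the Il1b call in Total between day 10 and day 5 (1.03), and added Il1f6 to the members lower for the difference at day 5 (-2.29).

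Calls over all genes ranged most between day 10 and day 5: 66 in PT became 19 to 192 (23 to 93 with 1 library left out), and 66 in Total became 15 to 158 (17 to 95). Against contralateral kidneys, 4572 and 4733 in PT became 2113 and 2053 under limma on RPKM and 7992 and 8193 with no fold minimum, and 5453 and 5814 in Total became 2656 and 2893, and 9859 and 10128. Few counts limit what can be said of Il1b, Il1r2 and Il1rl1 in PT, where contralateral libraries held 4, 0 and 2 in all.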

Other observations

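Some of the remaining family genes appeared in single libraries. Il1f10 was at 0 RPKM in 4 of 4 male and 2 of 3 female contralateral Total libraries, and reached 2.35 RPKM (21 counts) in Total day 10 female 3, the library with the lowest Il1rn of its group at 6.18 RPKM and the highest Il1b at 8.7. The other 6 Total libraries at day 10 held at most 0.797 RPKM. Il1f9 in PT at day 10 rested on male libraries 2, 3 and 4 with 11, 20 and 33 counts, while the other 4 libraries held 4, 1, 0 and 4. These genes were picked out after their values were seen.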
